A study of Marchantia polymorpha with 12 samples.

Results

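A run of 9 neighbouring genes on chromosome 2 of the liverwort Marchantia polymorpha was followed through 12 RNA libraries, from MpGH19.2 (Mp2g24410) to Mp2g24490 in the order of their identifiers. The deposited tables hold 19441 genes in all. The run was picked because several of its genes had higher counts in plants that also carry a mutation of the Polycomb gene MpE(z)1 than in their controls. That choice used the comparison of each double mutant with its controls, in both experimental sets, so values of that comparison are given below as a description and without a test. Of the 9 genes, 4 have a symbol in the reference table used here, namely MpGH19.2, MpGH19.3 (Mp2g24440), MpPR5b (Mp2g24470) and MpPL1.2 (Mp2g24480). The other 5, Mp2g24420, Mp2g24430, Mp2g24450, Mp2g24460 and Mp2g24490, are listed there as protein-coding genes without a symbol, and no role is given for them.

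Polyadenylated RNA was sequenced with strand information from 14-day thalli, the flat haploid body of the plant. Set 1 held 3 libraries of the Mpknox2-1 Mpez1-1 double mutant and 3 of the Mpknox2-1 control. Set 2 held 3 libraries of the Mpknox2-1 Mpez1-2 double mutant and 3 of its own Mpknox2-1 control. All 12 libraries thus carried Mpknox2-1, a mutation of the homeodomain gene MpKNOX2, and no plant without it was analysed here. The labels call the replicates biological and give neither strain nor sex. The column headers of the set 2 tables carry the word Tak2, which those of set 1 lack, and its meaning is not given in the sources used here. Mpez1-1 was grown only in set 1 and Mpez1-2 only in set 2, so allele and set cannot be told apart.

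MpGH19.2 and MpGH19.3 are named for glycoside hydrolase family 19, the chitinases that cleave chitin, the main polymer of fungal cell walls. MpPR5b is named for the pathogenesis-related PR5 proteins, which resemble the sweet protein thaumatin and include antifungal members in flowering plants. Genes of both kinds are usually described as induced by infection, wounding or stress hormones. MpPL1.2 is named for polysaccharide lyase family 1, whose members cut pectin. MpE(z)1 encodes a homologue of Enhancer of zeste. Such enzymes are the part of the Polycomb complex PRC2 that places a repressive methyl mark on histone H3.

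Gene counts per library ranged from 7019900 to 12098548. Levels are given as CPM, counts divided by the size of each library and scaled with TMM factors, and they can be compared between libraries for a gene but not between genes, since no gene lengths were used. MpE(z)1 (MpCXC3, Mp5g18040) had 120, 123 and 80 counts in the Mpez1-1 libraries, against 360, 304 and 248 counts in the set 1 controls. It had 165, 217 and 204 counts in the Mpez1-2 libraries, against 392, 344 and 416 counts in the set 2 controls. Its transcripts were lower in every double mutant library and absent from none. MpKNOX2 (MpHD21, Mp7g05320) had 9, 6 and 15 counts in the Mpez1-1 libraries, against 0, 0 and 2 in their controls. It had 3, 8 and 4 counts in the Mpez1-2 libraries, against 0 counts in every control of set 2. Of 7 germ cell genes, MpBHLH20, MpPRM and MpLC7 had 0 counts in both control groups. The summed CPM of the 7 was 55.5 to 70.8 in Mpez1-1 and 71.2 to 73.9 in its controls, and 90.5 to 104 in Mpez1-2 and 118 to 120 in its controls, most of it from MpRKD. The members did not all follow that sum. MpRKD fell in both double mutants, by 0.46 on the log2 scale in Mpez1-1 (edgeR adjusted p = 0.0142) and by 0.29 in Mpez1-2 (edgeR adjusted p = 0.00338). MpGCS1 rose in Mpez1-1 with a log2 fold change of 1.32 (edgeR adjusted p = 0.00143) and had 0.03 in Mpez1-2 (edgeR adjusted p = 0.943). MpBHLH20 had 46 summed counts in Mpez1-1 and 28 in Mpez1-2. MpRBCS, the small subunit of the carbon-fixing enzyme Rubisco and the marker of green thallus used here, had 504, 419 and 212 CPM in the Mpez1-1 libraries, against 224 to 246 CPM in their controls (edgeR adjusted p = 0.0849), so replicate 3 stood apart from the other Mpez1-1 libraries. It rose in Mpez1-2, with 476 to 576 CPM against 253 to 294 CPM in its controls (edgeR adjusted p = 1.78e-06). The part of these differences in the results below was not tested.

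MpGH19.3 had the most counts of the run in every double mutant library. It reached 5136, 6193 and 6584 counts in the Mpez1-1 libraries, against 396, 247 and 148 counts in the set 1 controls. In set 2 it had 3895, 3842 and 4579 counts in the Mpez1-2 libraries, against 566, 358 and 473 counts in the controls. No double mutant library came near a control library, and the double mutants of set 1 lay above those of set 2. In CPM it averaged 815 ± 175 in Mpez1-1 and 25.8 ± 11.3 in its controls, and 416 ± 31.5 in Mpez1-2 and 42.3 ± 8.57 in its controls (SD, n = 3 libraries each). The log2 fold change was 4.98 in set 1, 31.5-fold, and 3.34 in set 2, 10.2-fold. In tissue RNA of this kind, more cells that express a gene and more RNA per cell cannot be told apart.

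MpGH19.2, the other chitinase gene, lies 3 identifiers before MpGH19.3. It had 267, 312 and 292 counts in the Mpez1-1 libraries, against 124, 142 and 101 counts in the set 1 controls. In set 2 it had 407, 440 and 586 counts in the Mpez1-2 libraries, against 333, 215 and 166 counts in the controls. In CPM the groups did not overlap in either set, although the highest set 2 control, replicate 1 with 29.7 CPM, stood nearer to the lowest Mpez1-2 library, with 43.5 CPM, than to the lowest control, with 15.1 CPM. The log2 fold changes were 1.70 in set 1 and 1.20 in set 2, and the set 2 value was 1.5 without that control library. The counting of reads that fit several places is not given in the sources used here, so reads shared between similar chitinase genes make the split between MpGH19.2 and MpGH19.3 uncertain.

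MpPR5b had the most counts of the run in every control library, and it was higher in all double mutant libraries; counts of different genes are not corrected for length. It had 1401, 1681 and 1159 counts in the Mpez1-1 libraries, against 557, 458 and 340 counts in the set 1 controls. It had 2964, 2990 and 3095 counts in the Mpez1-2 libraries, against 928, 705 and 1150 counts in the set 2 controls. In CPM it averaged 189 ± 10.3 in Mpez1-1 and 44.6 ± 8.34 in its controls, and 307 ± 21.1 in Mpez1-2 and 84.4 ± 19.3 in its controls (SD, n = 3 each). The groups did not overlap, and the log2 fold changes of 2.09 in set 1 and 1.91 in set 2 were the closest to each other among the 3 defence genes.

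Of the 5 genes without a symbol, 3 were also higher in the double mutants. Mp2g24450 had 86, 145 and 182 counts in the Mpez1-1 libraries, against 8, 7 and 6 counts in the set 1 controls, and 364, 335 and 425 counts in the Mpez1-2 libraries, against 106, 101 and 98 counts in the set 2 controls. It was thus nearly silent in the controls of set 1 and well expressed in those of set 2, and its log2 fold changes were 4.74 in set 1 and 2.08 in set 2. Mp2g24460 had 76, 59 and 33 counts in the Mpez1-1 libraries, against 1, 3 and 0 counts in the set 1 controls, and 112, 94 and 125 counts in the Mpez1-2 libraries, against 7, 1 and 0 counts in the set 2 controls. Its ratio of summed counts, scaled to library size, was 56.9 in set 1 (exact 95% interval 21.8 to 211) and 46.0 in set 2 (23.1 to 107), and these intervals cover counting error only. The fitted log2 fold changes of Mp2g24460, 5.69 in set 1 and 5.51 in set 2, rest on few control counts and became 6.79 without set 1 control replicate 2 and 7.63 without set 2 control replicate 1. Mp2g24490, the last gene of the run, had 67, 88 and 98 counts in the Mpez1-1 libraries, against 14, 7 and 20 counts in the set 1 controls, and 30, 37 and 48 counts in the Mpez1-2 libraries, against 11, 9 and 7 counts in the set 2 controls. Its groups did not overlap in either set, and its log2 fold changes were 3.04 in set 1 and 2.27 in set 2.

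The remaining 3 genes were too low to be fitted in any comparison. Mp2g24420 had 4, 4 and 2 counts in the Mpez1-1 libraries, against 15, 23 and 5 counts in the set 1 controls, and 1, 4 and 4 counts in the Mpez1-2 libraries, against 4, 5 and 1 counts in the set 2 controls. It was thus the only gene of the run with fewer summed counts in a double mutant than in its controls, at 10 against 43 in set 1 and 9 against 10 in set 2. Mp2g24430 had 5, 3 and 2 counts in the Mpez1-1 libraries, against 2, 0 and 0 counts in the set 1 controls, and 2, 2 and 1 counts in the Mpez1-2 libraries, against 0, 1 and 0 counts in the set 2 controls. The pectate lyase gene MpPL1.2 had 0 sense counts in all 12 libraries, which allows up to 3 counts summed over the 3 libraries of a group. Its summed counts taken as the opposite strand were 1 in Mpez1-1 and 2 in its controls. MpPL1.2 lies between MpPR5b and Mp2g24490, which both had sense counts in every library.

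**Figure D1:**
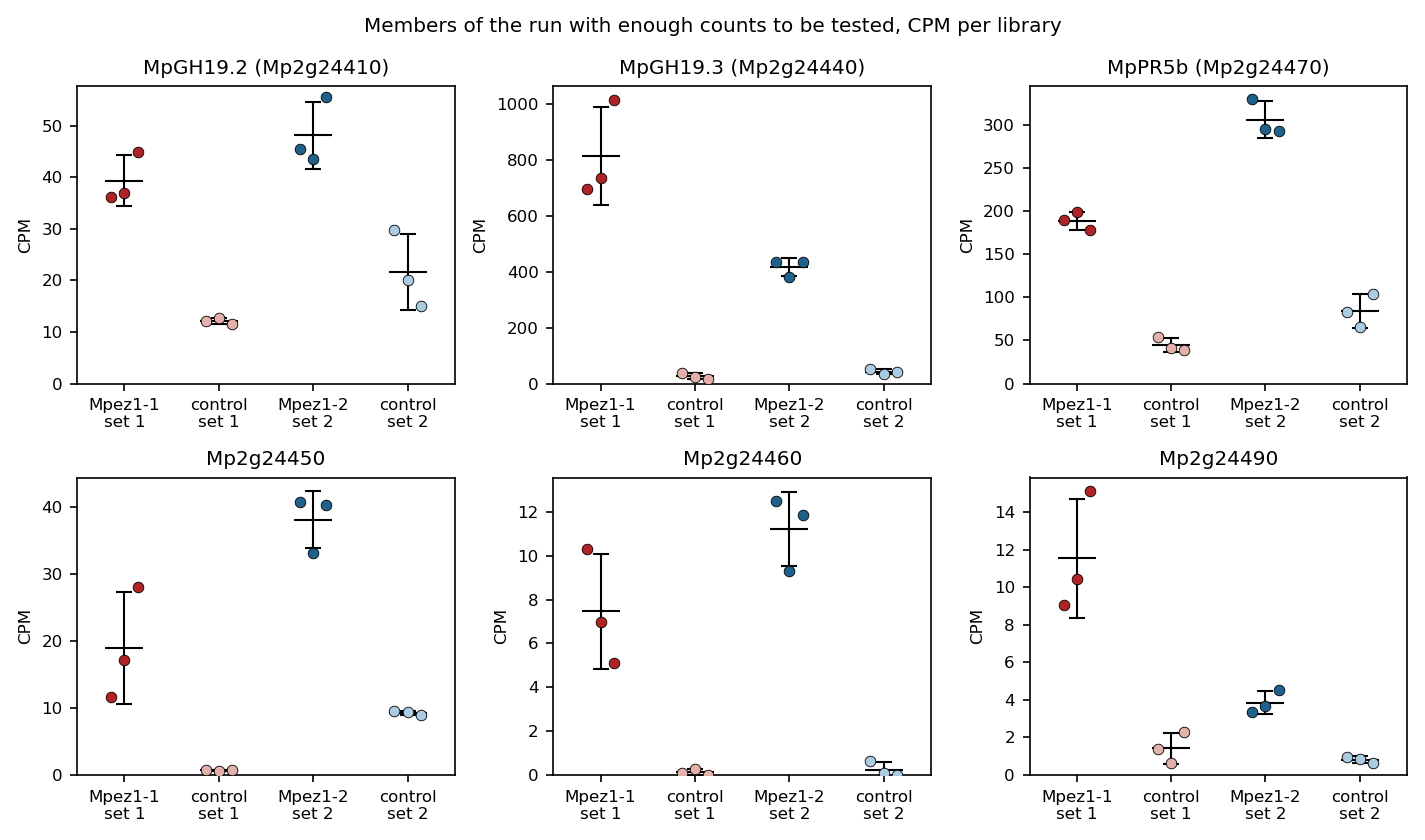
CPM of the 6 genes of the run with enough counts to be fitted, by group; points are libraries, horizontal bars group means and error bars SD (n = 3), cut at 0. In every panel the double mutant libraries lie above the controls of their own set, with MpGH19.3 at 815 ± 175 CPM in Mpez1-1, 416 ± 31.5 CPM in Mpez1-2, 25.8 ± 11.3 CPM in the set 1 controls and 42.3 ± 8.57 CPM in the set 2 controls.

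In each set, 6 of the 9 genes passed the filter on low counts, and in all 6 every double mutant library was higher in CPM than every control library. Of all genes tested, 31.1% showed this in set 1 and 22.5% in set 2. Nothing is read from this difference, because the run was chosen on it and because a gene silent in the controls passes the filter only through its double mutant libraries. The 9 genes together took 1082 ± 180 CPM in Mpez1-1 and 86.2 ± 19.9 CPM in its controls, and 825 ± 52.9 CPM in Mpez1-2 and 159 ± 24.8 CPM in its controls (SD, n = 3 each). The make-up of that total differed between the groups. MpGH19.3 supplied 74.9% ± 3.39 of the counts of the run in Mpez1-1 and 29.1% ± 5.89 in its controls, and 50.5% ± 1.07 in Mpez1-2 and 26.5% ± 2.13 in its controls. MpPR5b supplied 17.9% ± 3.45 in Mpez1-1 and 52.1% ± 2.52 in its controls, and 37.2% ± 2.00 in Mpez1-2 and 52.9% ± 6.92 in its controls.

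The genes on both sides of the run were set beside it, 10 by identifier number on each side. The nearest on the left, Mp2g24400, had 1080, 1268 and 876 counts in the Mpez1-1 libraries, against 1569, 1939 and 1523 counts in the set 1 controls, and 812, 972 and 901 counts in the Mpez1-2 libraries, against 986, 980 and 1046 counts in the set 2 controls. It was abundant in all 12 libraries, with log2 fold changes of -0.21 in set 1 and 0.04 in set 2. Beyond it, Mp2g24390 had 1 sense count in 1 Mpez1-2 library and 0 sense counts in the other 11 libraries. Its summed counts taken as the opposite strand were 17 in Mpez1-1 against 9 in its controls, and 36 in Mpez1-2 against 5. The nearest on the right, MpFAD3 (Mp2g24510), named for a fatty acid desaturase, had 2554, 2650 and 1763 counts in the Mpez1-1 libraries, against 3512, 4231 and 3421 counts in the set 1 controls, and 2563, 3148 and 3097 counts in the Mpez1-2 libraries, against 3519, 3501 and 3544 counts in the set 2 controls. After scaling to library size its log2 fold changes were -0.25 in set 1 and -0.06 in set 2. Mp2g24520 had 19, 23 and 8 counts in the Mpez1-1 libraries, against 43, 51 and 35 counts in the set 1 controls, and 50, 65 and 55 counts in the Mpez1-2 libraries, against 100, 85 and 80 counts in the set 2 controls. On the sense strand, both edges of the run were therefore formed by genes whose double mutant libraries were close to or below their controls.

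Further out the flanks were mixed. On the left, MpC2H2-11 had log2 fold changes of -0.15 in set 1 and 0.01 in set 2, and Mp2g24350 had -0.02 in set 1 and 0.05 in set 2, while Mp2g24380 had 1.10 in set 1 and 1.05 in set 2. On the right, the peroxidase gene MpPOD19 (Mp2g24530) had 26, 10 and 15 counts in the Mpez1-1 libraries, against 1, 1 and 1 counts in the set 1 controls, and 61, 61 and 111 counts in the Mpez1-2 libraries, against 10, 26 and 17 counts in the set 2 controls. Its ratio of summed counts, scaled to library size, was 23.0 in set 1 (exact 95% interval 7.45 to 115) and 4.89 in set 2 (3.61 to 6.71). MpPOD19 lies outside the run by its identifier, yet its levels had the pattern of Mp2g24450, with low counts in the set 1 controls and higher counts in those of set 2. Mp2g24580 went in opposite directions, with log2 fold changes of -1.19 in set 1 and 1.14 in set 2. Of the 20 flanking genes, 10 had too few counts to be fitted, among them MpCupin44 with 0 counts in all 12 libraries. Some of these had more summed counts in the double mutants. Mp2g24565 had 25 in Mpez1-1 against 2 in its controls, and 11 in Mpez1-2 against 3. Mp2g24560 had 13 against 0 in set 1 and 3 against 0 in set 2. Mp2g24540 had 5 against 0 in set 1 and 10 against 0 in set 2. Mp2g24360 and Mp2g24570 had fewer in set 1, 7 against 14 and 0 against 1.

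**Figure D2:**
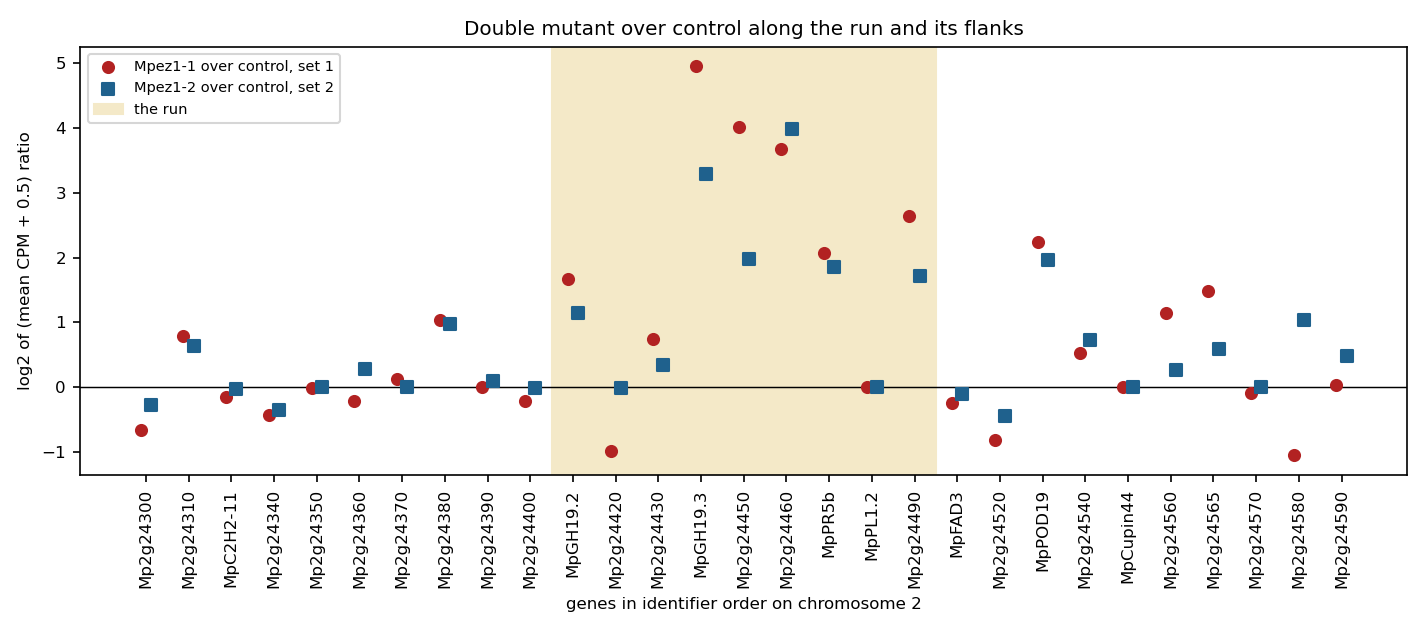
Double mutant over control along the run (shaded) and 10 genes on each side in identifier order; the vertical axis is the log2 ratio of group mean CPM with 0.5 CPM added, circles for Mpez1-1 in set 1 and squares for Mpez1-2 in set 2. MpGH19.3, Mp2g24450 and Mp2g24460 stand highest, MpPL1.2 lies at 0 with no sense counts, and the neighbours Mp2g24400 and MpFAD3 lie near 0. The added 0.5 CPM lowers the values of rare genes.

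The controls of both sets carry Mpknox2-1, and strain and sex are not given for either set. The choice of the run did not use the difference between these controls. Of the 9 genes, 5 had enough counts to be tested here, and 3 of these were higher in the set 2 controls than in the set 1 controls, 2 did not pass and none was lower (edgeR quasi-likelihood test, Benjamini-Hochberg adjusted p under 0.05 over 12202 genes). In the same comparison 30.6% of all tested genes were higher and 29.5% lower in the set 2 controls. Mp2g24450 differed most, with a log2 difference of 3.71 (SE 0.24, edgeR adjusted p = 5.98e-07), or 13.1-fold, and 9.27 ± 0.323 CPM in the set 2 controls against 0.696 ± 0.0779 CPM in those of set 1. MpPR5b was higher by 0.91 (SE 0.20, edgeR adjusted p = 0.00787). MpGH19.2 was higher by 0.83 (SE 0.24, edgeR adjusted p = 0.0168), a call that was lost when set 1 control replicate 1, 2 or 3 was left out (edgeR adjusted p = 0.0676, 0.0559 and 0.0773). MpGH19.3 differed by 0.70 (SE 0.34, edgeR adjusted p = 0.136) and Mp2g24490 by -0.75 (SE 0.49, edgeR adjusted p = 0.21), neither beyond the spread of the replicates. For MpGH19.3 the difference passed with DESeq2 (adjusted p = 0.0134), in the edgeR fit of all 12 libraries (adjusted p = 0.0474) and without set 1 control replicate 1 (adjusted p = 0.00391). Fold changes of the sets are thus taken against control levels that themselves differ for some of these genes.

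Between the double mutants, the genes of the run differed in both directions. Of 6 genes tested, 2 were higher and 2 lower in Mpez1-2 than in Mpez1-1, and 2 did not pass, where 30.5% of all tested genes were higher and 30.3% lower. MpGH19.3 was lower in Mpez1-2 than in Mpez1-1, with a log2 difference of -0.97 (SE 0.15, edgeR adjusted p = 0.000616). Mp2g24490 was lower by the same test, with -1.57 (SE 0.24, edgeR adjusted p = 0.000543), at 3.85 ± 0.622 CPM in Mpez1-2 and 11.5 ± 3.17 CPM in Mpez1-1. MpPR5b was higher in Mpez1-2 by 0.70 (SE 0.09, edgeR adjusted p = 0.000145). Mp2g24450 was higher by 1.01 (SE 0.28, edgeR adjusted p = 0.0171), and this call was lost without Mpez1-1 replicate 2, Mpez1-2 replicate 1 or Mpez1-2 replicate 3 (edgeR adjusted p = 0.0582, 0.0512 and 0.0521). For MpGH19.2 the difference was 0.30 (SE 0.13, edgeR adjusted p = 0.075) and for Mp2g24460 it was 0.59 (SE 0.25, edgeR adjusted p = 0.065). Without a filter on low counts both of these passed (edgeR adjusted p = 0.0149 and 0.00944), as MpGH19.2 did without Mpez1-1 replicate 3 (0.00475) and Mp2g24460 without Mpez1-1 replicate 1 (0.00786).

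The difference between the effects of the double mutants, each against its own controls, was tested in a fit of all 12 libraries. The choice of the run fixed a higher level in both sets but not the set in which the change was larger. Of 6 genes tested, 2 had a smaller effect in set 2 than in set 1, none a larger one, and 4 did not pass, where 12.3% of all tested genes were lower and 10.7% higher by this measure. MpGH19.3 had a difference of effects of -1.68 on the log2 scale (SE 0.37, edgeR adjusted p = 0.00877), so its fold change was 3.20 times smaller in set 2. Mp2g24450 had a difference of effects of -2.70 (SE 0.45, edgeR adjusted p = 0.00136), or 6.50 times smaller. The double mutants differed in opposite directions behind these 2 calls. For Mp2g24450 the set 2 controls were higher while its double mutants were also higher. For MpGH19.3 the set 2 double mutants were lower, with a log2 difference of -0.97. Its set 2 controls differed by 0.70, which missed the threshold in the main fit and passed in some alternatives. The part of the controls in this call was not tested. MpPR5b had a difference of effects of -0.22 (SE 0.22, edgeR adjusted p = 0.498), MpGH19.2 of -0.54 (SE 0.28, edgeR adjusted p = 0.192) and Mp2g24490 of -0.82 (SE 0.55, edgeR adjusted p = 0.304). A miss of the threshold does not show that these effects were equal, and MpGH19.2 passed without set 2 control replicate 3 (edgeR adjusted p = 0.0358) and without a filter on low counts (0.0158). For Mp2g24460 the value was -0.24 (SE 0.99, edgeR adjusted p = 0.898), which rests on few control counts and changed sign when single libraries were left out.

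**Figure D3:**
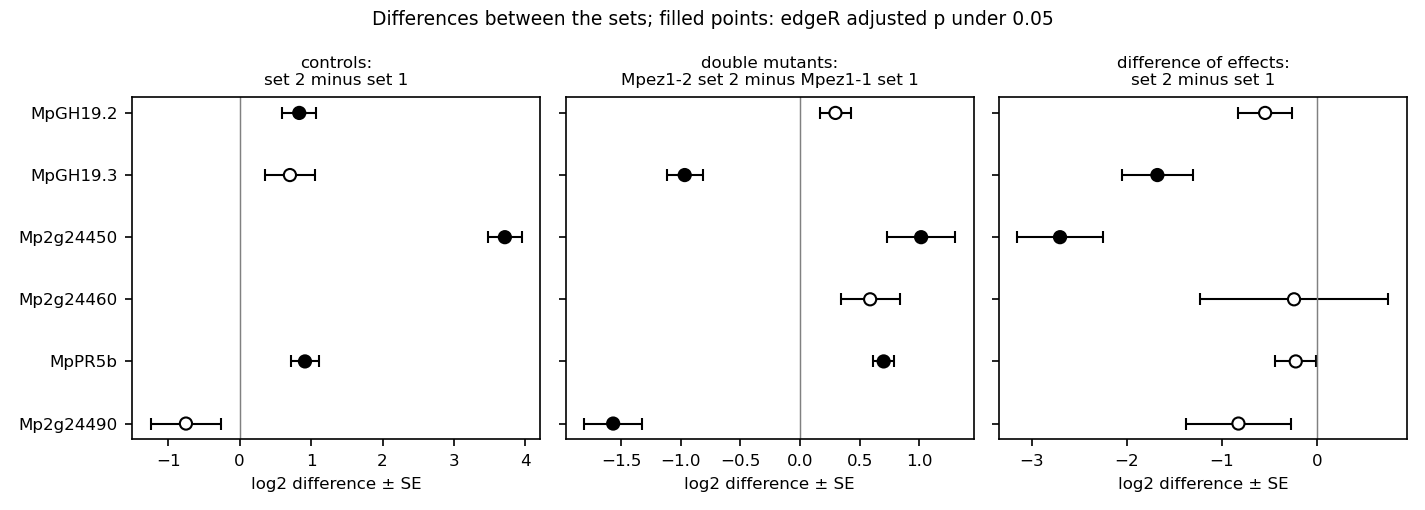
Log2 differences ± SE between the sets for the genes of the run that could be tested: controls, set 2 minus set 1 (left), double mutants, Mpez1-2 minus Mpez1-1 (middle), and the difference of effects, set 2 minus set 1 (right); filled points passed an edgeR adjusted p of 0.05. Mp2g24450 stands apart among the controls at 3.71, and MpGH19.3 at -1.68 and Mp2g24450 at -2.70 are the filled points on the right; Mp2g24460 was too low for the left panel.

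MpGH19.3 and MpPR5b also differed in their balance. The ratio of MpGH19.3 counts to MpPR5b counts was 4.34 ± 1.16 in Mpez1-1 and 0.562 ± 0.139 in its controls, and 1.36 ± 0.105 in Mpez1-2 and 0.510 ± 0.0993 in its controls (SD, n = 3 each). Between the double mutants the log2 ratio was lower by -1.65 in Mpez1-2, with every library of Mpez1-2 below every library of Mpez1-1 (exact two-sided permutation p = 0.1, the smallest that 3 against 3 libraries allow). Between the controls the difference of the log2 ratio was -0.13, set 2 minus set 1 (exact two-sided permutation p = 0.7).

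The second table of each library held counts taken as the opposite strand, 1.66% to 2.17% of the gene counts of both tables together. MpPR5b was the gene of the run with the most opposite-strand counts in the controls of set 1. It had 37, 40 and 24 such counts in the Mpez1-1 libraries, against 65, 114 and 75 in the set 1 controls. It had 11, 4 and 8 in the Mpez1-2 libraries, against 1, 1 and 1 in the set 2 controls. The groups did not overlap in either set, and the order was reversed: the ratio of summed counts, scaled to library size, was 0.539 in set 1 (exact 95% interval 0.424 to 0.681) and 8.52 in set 2 (2.57 to 44.3). As a share of the MpPR5b counts on both strands, the opposite strand made up 2.03% to 2.57% in Mpez1-1 and 10.5% to 19.9% in its controls, and 0.134% to 0.370% in Mpez1-2 and 0.0869% to 0.142% in its controls. The exact 95% intervals of these shares ran from 1.30% to 3.53% over the Mpez1-1 libraries, 8.16% to 23.4% over the set 1 controls, 0.0364% to 0.661% over the Mpez1-2 libraries and 0.00220% to 0.787% over the set 2 controls.

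The tests on these counts were chosen after the counts of MpPR5b had been seen, and they were adjusted over all genes with enough opposite-strand counts. Between the controls, MpPR5b was lower in set 2 than in set 1, with a log2 difference of -6.35 (SE 0.42, edgeR adjusted p = 4.43e-06 over 1742 genes). Of those genes 26.3% were lower and 8.9% higher in set 2. The set 2 controls held 3 such counts in all against 254 in the set 1 controls, a scaled ratio of 0.0109 with an exact 95% interval of 0.00222 to 0.0321. Between the double mutants the opposite-strand counts of MpPR5b were lower in Mpez1-2 by a log2 difference of -2.49 (SE 0.41, edgeR adjusted p = 0.0013), where 30.2% of tested genes were lower and 8.64% higher. The difference of effects was 3.83 (SE 0.68, edgeR adjusted p = 0.0137 over 2292 genes), where 0.916% of tested genes were higher and 1% lower. The difference of effects was thus not past the threshold for the sense counts of MpPR5b, while its opposite-strand counts differed in direction.

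**Figure D4:**
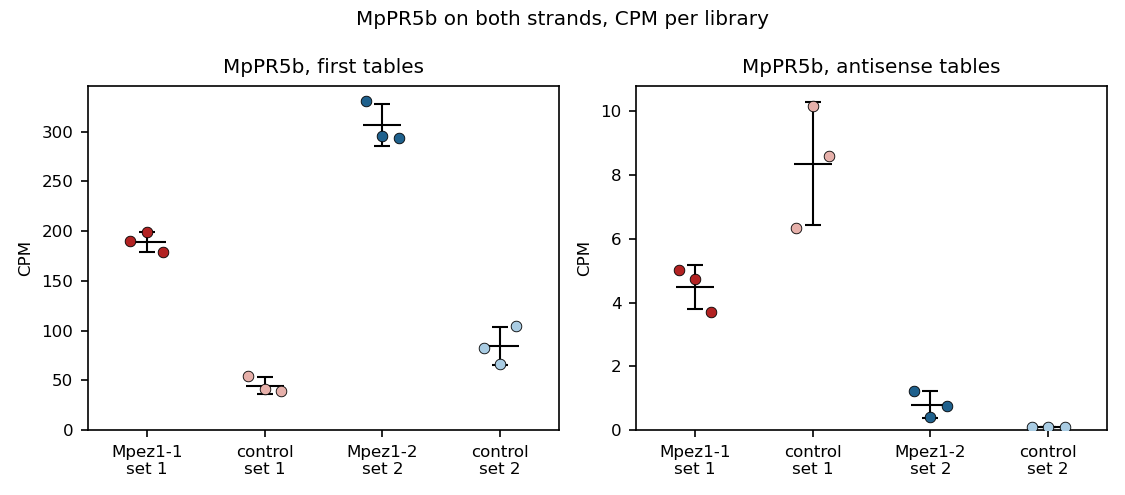
CPM of MpPR5b in the first tables (left) and on the opposite strand (right), by group; points are libraries, horizontal bars means and error bars SD (n = 3). On the left both double mutants lie above their controls, 189 ± 10.3 CPM in Mpez1-1 against 44.6 ± 8.34 CPM in its controls and 307 ± 21.1 CPM in Mpez1-2 against 65.9 to 104 CPM in its controls; on the right Mpez1-1 lies below its controls, Mpez1-2 lies above its own, and both groups of set 2 lie below those of set 1.

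MpGH19.3 was the other gene of the run with over 5 opposite-strand counts in a library. It had 29, 29 and 14 in the Mpez1-1 libraries, against 1, 0 and 0 in the controls of set 1. In set 2 it had 12, 7 and 15 such counts in the Mpez1-2 libraries, against 1, 1 and 0 in the controls. They were higher in the double mutants, as its sense counts were, and made up 0.212% to 0.562% of its counts on both strands in Mpez1-1 and 0.182% to 0.327% in Mpez1-2. Between the double mutants they were lower in Mpez1-2 by a log2 difference of -1.46 (SE 0.40, edgeR adjusted p = 0.0186), a call that DESeq2 did not make (adjusted p = 0.0583) and that was lost without Mpez1-1 replicate 2 or Mpez1-2 replicate 2 (edgeR adjusted p = 0.0714 and 0.0672). Their difference of effects was -2.14 (SE 1.54, edgeR adjusted p = 0.596), against control groups of 1 and 2 counts, and it was -3.87 without set 1 control replicate 1. No other gene of the run had more than 5 opposite-strand counts in any library, and Mp2g24420 had none.

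GH19 chitinase genes elsewhere in the genome were examined as a family, since their values did not enter the choice of the run. Of 13 such genes with a symbol, 11 were tested in set 1, of which 8 rose in Mpez1-1, none fell and 3 did not pass, with a median log2 fold change of 1.64. In set 2, 8 of 11 rose in Mpez1-2, none fell and 3 did not pass, with a median of 1.62. Of all tested genes, 26.5% rose and 24.1% fell in set 1, and 20.4% rose and 17.4% fell in set 2, with medians of -0.02 in set 1 and -0.0038 in set 2. The family members that rose most lay in groups of neighbours like the run itself. MpGH19.13 (Mp5g02510) rose with a log2 fold change of 5.10 in Mpez1-1 (SE 0.30, edgeR adjusted p = 2.57e-05) and of 2.88 in Mpez1-2 (SE 0.09, edgeR adjusted p = 2.44e-11). Its neighbour MpGH19.11 (Mp5g02480) had 88 summed counts in Mpez1-1 and 6 in its controls, and 53 in Mpez1-2 and 2 in its controls, so it passed the filter through the double mutants. MpGH19.6 (Mp4g20440) rose by 4.21 in Mpez1-1 (SE 0.38, edgeR adjusted p = 0.000209) and by 2.36 in Mpez1-2 (SE 0.34, edgeR adjusted p = 0.00364).

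The neighbours MpGH19.7 (Mp4g20450) and MpGH19.8 (Mp4g20470) rose in both sets too, MpGH19.7 by 2.47 in Mpez1-1 and 3.66 in Mpez1-2, and MpGH19.8 by 3.38 in Mpez1-1 and 1.96 in Mpez1-2. MpGH19.15 (Mp7g04510), the family member with the most counts, did not pass in either set, with 587 to 629 CPM in the Mpez1-1 libraries and 635 to 749 CPM in their controls, and 501 to 541 CPM in the Mpez1-2 libraries and 577 to 600.2 CPM in their controls. The difference of effects, set 2 minus set 1, was lower for 3 of the 11 family members tested and higher for 1. It was -2.26 for MpGH19.13 (SE 0.32, edgeR adjusted p = 0.000724), -1.90 for MpGH19.6 (SE 0.56, edgeR adjusted p = 0.0336) and -1.46 for MpGH19.8 (SE 0.22, edgeR adjusted p = 0.000609), beside -1.68 for MpGH19.3 of the run. It was 1.15 for MpGH19.7 (SE 0.30, edgeR adjusted p = 0.0158), which lies between MpGH19.6 and MpGH19.8. A smaller effect in set 2, as in MpGH19.3, was therefore seen in some family members and not in others.

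**Figure D5:**
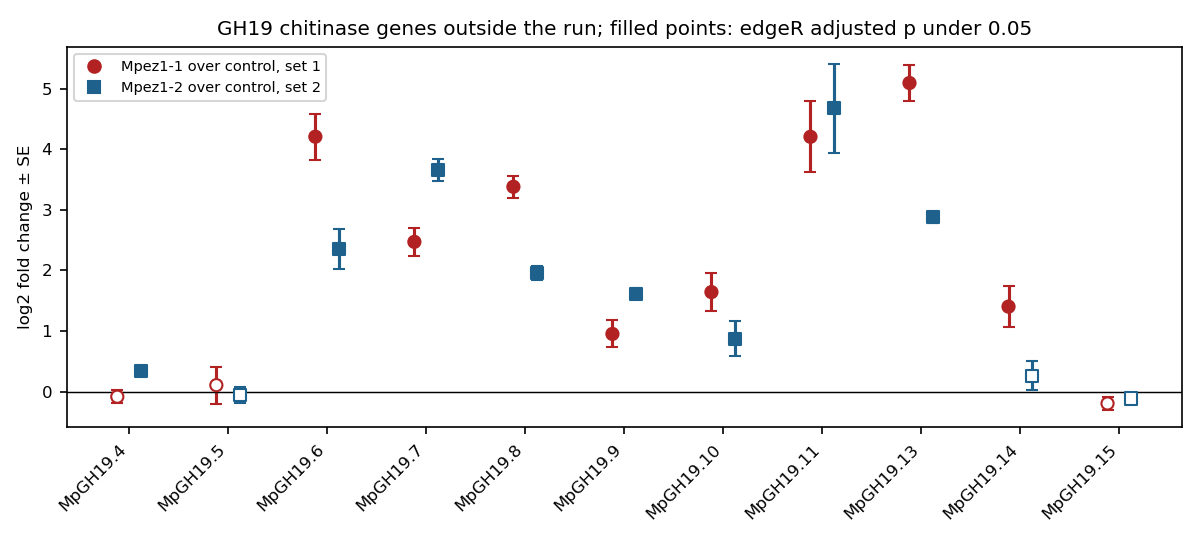
Log2 fold change ± SE of the 11 GH19 chitinase genes outside the run that were tested, Mpez1-1 over control in set 1 (circles) and Mpez1-2 over control in set 2 (squares); filled points passed an edgeR adjusted p of 0.05. MpGH19.6, MpGH19.8 and MpGH19.13 stand higher in set 1 than in set 2, MpGH19.7 stands lower, and MpGH19.5 and MpGH19.15 lie near 0 in both.

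Relatives of MpPR5b behaved differently from it. Of the 2 other genes with a thaumatin-like symbol, MpPR5a (Mp1g15130) had a log2 fold change of -0.11 in Mpez1-1 (SE 0.25, edgeR adjusted p = 0.741) and fell by 0.64 on the log2 scale in Mpez1-2 (SE 0.12, edgeR adjusted p = 0.000842). MpTLP3/9-like (Mp6g01640) had -0.10 in Mpez1-1 (SE 0.10, edgeR adjusted p = 0.416) and fell by 0.23 in Mpez1-2 (SE 0.07, edgeR adjusted p = 0.0145). None of these relatives thus rose in either set, where MpPR5b had 2.09 and 1.91.

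Other defence genes were counted by family from their symbols. All 12 PR1 genes tested of 22 with a symbol rose in Mpez1-1, and all 13 tested rose in Mpez1-2. That count is partly built in, since most PR1 genes had few or no control counts and passed the filter through the double mutant libraries. MpPR1g (Mp2g15990) had 697 summed counts in Mpez1-1, 1092 in Mpez1-2 and 0 in both control groups. The same holds in part for other PR genes, of which 7 of 7 tested rose in set 1 and 6 of 6 in set 2, from 13 symbols. Among them MpPR6a (Mp8g09630), named for the PR6 proteinase inhibitors, had 373 ± 69.5 CPM in Mpez1-1 and 5.15 ± 2.51 CPM in its controls, and 240 ± 21.7 CPM in Mpez1-2 and 1.81 ± 0.864 CPM in its controls.

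Families that also degrade microbial cell walls were mixed, and their counts stand beside 26.5% of all tested genes higher and 24.1% lower in set 1, and 20.4% higher and 17.4% lower in set 2. Of 8 GH18 chitinase genes, which cleave chitin by another fold, 5 rose and 1 fell in Mpez1-1, and 3 rose and 2 fell in Mpez1-2. MpGH18.6 (Mp5g12520) rose by 3.23 in Mpez1-1 (SE 0.27, edgeR adjusted p = 8.74e-05) and by 3.52 in Mpez1-2 (SE 0.14, edgeR adjusted p = 3.46e-10). Of 25 GH17 genes, the family of beta-1,3-glucanases, 8 of 21 tested rose and 3 fell in Mpez1-1, and 10 of 22 rose and 8 fell in Mpez1-2. MpGH17.11 (Mp2g14740) had 227 summed counts in Mpez1-1 and 9 in its controls, and 427 in Mpez1-2 and 11 in its controls, so it passed the filter through the double mutants. MpLYP (Mp5g22430), the gene with a LysM symbol of the kind that binds chitin fragments, fell by 1.13 on the log2 scale in Mpez1-1 and by 0.43 in Mpez1-2.

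Regulators and hormone genes are read against the same shares of all tested genes, 26.5% higher in set 1 and 20.4% in set 2. Of WRKY transcription factor genes, 9 of 13 tested rose and 1 fell in Mpez1-1, and 8 of 14 rose and none fell in Mpez1-2. MpWRKY3 (Mp5g05560) rose by 4.88 in Mpez1-1 (SE 0.30, edgeR adjusted p = 1.17e-05) and by 3.62 in Mpez1-2 (SE 0.26, edgeR adjusted p = 2.18e-07). The control levels of this family differed between the sets. Of 13 WRKY genes tested there, 12 were lower in the set 2 controls than in those of set 1 and none higher, where 29.5% of all tested genes were lower. Their median log2 difference was -1.16, and MpWRKY3 was the gene not called. Of jasmonate pathway genes, 8 of 17 tested rose and 3 fell in Mpez1-1, and 8 of 18 rose and 2 fell in Mpez1-2, with the lipoxygenase gene MpLOX16 (Mp2g16000) at 3.99 and 4.67. Apart from MpNINJA (Mp1g04410), at 0.59 and 0.23, every riser had a lipoxygenase symbol. MpCOI1 (Mp2g26590) fell in Mpez1-1, with -0.44 (edgeR adjusted p = 0.00599), and had 0.09 in Mpez1-2 (edgeR adjusted p = 0.308). MpJAZ (Mp6g06230) did not pass in either set, with -0.02 and -0.85. Of salicylate and phenylalanine branch genes, 9 of 12 rose and 2 fell in Mpez1-1, and 5 of 12 rose and 1 fell in Mpez1-2. All that rose had a phenylalanine ammonia-lyase (PAL) or PAL-like symbol, among them MpPAL4 (Mp4g14210) at 2.68 and 1.86. MpICS (Mp2g20660) had log2 fold changes of -1.21 in Mpez1-1 (edgeR adjusted p = 0.00358) and -0.79 in Mpez1-2 (edgeR adjusted p = 1.82e-05). MpNPR (Mp1g02380) did not pass in either set. Over all defence families outside the run, 66 of 104 tested genes rose and 11 fell in Mpez1-1, and 61 of 107 rose and 16 fell in Mpez1-2, from 130 symbols. This count is partly built in, since it includes the PR genes above and others that passed the filter through the double mutant libraries: 89 of the 130 had enough counts to be tested between the controls. Of all tested genes, 26.5% rose in set 1 and 20.4% in set 2.

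For each defence gene of the run, the 3 genes outside it with the most similar log2 CPM over the 12 libraries were named, by Pearson r among 13238 genes. Closest to MpGH19.3 were the dirigent gene MpDIR64 (Mp3g24210, r = 0.996), Mp3g20250 (0.995) and Mp1g22360 (0.995). MpDIR64 averaged 424 ± 70.8 CPM in Mpez1-1 and 2.77 ± 1.62 CPM in its controls, and 232 ± 29.5 CPM in Mpez1-2 and 5.67 ± 0.667 CPM in its controls. Closest to MpPR5b were Mp7g03030 (r = 0.990), Mp1g18380 (0.982) and Mp2g14780 (0.981), and closest to MpGH19.2 were the terpene synthase-like gene MpMTPSL19 (Mp4g04770, r = 0.969), Mp6g01000 (0.965) and Mp5g19400 (0.963). Mp6g01000 was rare, with 0.97 CPM in Mpez1-1 and 0.10 CPM in its controls, and 0.88 CPM in Mpez1-2 and 0.30 CPM in its controls. Its r therefore rests on few counts. Libraries of a group share genotype and set in these correlations. Over the same libraries 5.30% of genes had an r over 0.9 with MpGH19.3, 2.69% with MpPR5b and 1.66% with MpGH19.2. MpPL1.2, with no sense counts, was not compared.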

How the data were processed

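The authors deposited raw counts per gene and per transposable element copy, 2 tables for each of 12 libraries. The submitters' processing notes name Trim Galore and STAR, without versions or settings. How reads were assigned to genes, what was done with those matching several loci, and which build was used: none of this is given in the sources used here. From its naming and its small gene totals, the second table was read as counts of the opposite strand. Symbols were looked up by identifier number in a table of the MpTak2 assembly, version 7.1, which matched 17624 identifiers and named 3088. No positions or sequences are printed, because the build of the files is not known.

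Tests used the quasi-likelihood method of edgeR 4.0.16 (R 4.3.3, robust option) after filterByExpr (minimum count 10, minimum total 15), with TMM factors over genes and transposable element copies and Benjamini-Hochberg adjustment over all tested genes at 0.05. Each double mutant was fitted with the controls of its own set, the controls and the double mutants of the sets were compared in fits of 6 libraries, and the difference of effects came from all 12. For opposite-strand counts, library sizes and scaling were taken from the first tables. An SE is the absolute log2 fold change divided by the square root of the F statistic, so it is derived from the test. CPM values are means ± SD of 3 libraries. Intervals are exact 95% ones for ratios of summed counts and Clopper-Pearson ones for shares, and they and the floor of 3 counts cover counting error only. DESeq2 1.42.0, other scalings and filters, a replicate block, a joint fit and leaving out each library were tried as alternatives.

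The members of the run, the gene lists and the tests were chosen with earlier results of these data known. Named were all members, the flanks, MpE(z)1, MpKNOX2, up to 3 genes per list called in both sets with the largest mean change, and the 3 genes most like each member with a symbol. The other GH19 genes, MpPR5a, MpTLP3/9-like, MpICS, MpNPR, MpNINJA, MpCOI1 and MpJAZ were named after their values had been seen. MpPR1, whose symbol has no letter, falls in no list. A planned search for promoter motifs was not made, since no promoter sequences were used here. Replicate pairs differed beyond sampling noise, since their chi-square over degrees of freedom was at least 6.44 (set 1) and 2.69 (set 2), so no library was counted as a repeat. In Mpez1-1, replicate 3 stood apart, at 30.3 from replicate 1 and 21.7 from replicate 2, which were 6.44 from each other.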

Additional observations from a re-analysis of the deposited data

Results flagged for a closer look

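In 3 results the effect of the double mutants differed between the sets by a test of the difference itself. For MpGH19.3 the difference of effects, set 2 minus set 1, was -1.68 on the log2 scale. For Mp2g24450 it was -2.70. For the opposite-strand counts of MpPR5b it was 3.83, with the Mpez1-2 libraries above their controls and the Mpez1-1 libraries below theirs. Allele and set cannot be told apart in these differences.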

How the results depend on the processing

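The counts of all genes, of defence genes and of genes of the run past the threshold stayed within 1.5 times their reported values in all 148 alternatives, with 2 to 4 genes of the run called between the controls, 3 to 6 between the double mutants and 2 to 3 for the difference of effects. Of 301 alternatives for single tests, 276 kept direction and call, 10 lost the call, 11 gained it and 4 changed sign. All 4 were of the difference of effects of Mp2g24460, at 0.029 without set 1 control replicate 1, 0.311 without set 1 control replicate 3, 0.145 without Mpez1-1 replicate 1 and 1.88 without set 2 control replicate 1, none past the threshold; leaving out single libraries gave -1.38 to 1.88. The difference of effects kept its call in all alternatives run for MpGH19.3 (edgeR or DESeq2 adjusted p 2.12e-05 to 0.0342), Mp2g24450 (2.75e-17 to 0.00757) and opposite-strand MpPR5b (0.00266 to 0.0465). For opposite-strand MpGH19.3 the difference between the double mutants was also lost with TMM factors of those tables (edgeR adjusted p = 0.0503). Of 168 alternatives for fold changes of the run, 161 moved less than the replicate SD and none changed sign; summing both strands gave MpPR5b a log2 fold change of 1.83 in set 1. Same-numbered replicates within a set deviated together weakly at most (r -0.0035 to 0.097), and the numbers were not taken as pairs. With the number as a replicate block, calls were added for MpGH19.3 between the controls (0.75, edgeR adjusted p = 0.0186) and for MpGH19.2 between the double mutants (0.29, edgeR adjusted p = 0.0347). In set 2 each library correlated best with its own number, and in set 1 this did not hold. Genes of the run with under 10 counts in most libraries could not be tested at this depth, and a fold change against a few control counts is loosely bounded.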
